A study of Mus musculus with 14 samples.

Results

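Pou5f1, Sox2 and Nanog are the 3 transcription factor genes at the centre of the network that keeps embryonic stem cells (ESCs) pluripotent. They were chosen by symbol and make up 3 of the 23174 gene rows measured in the series. Messenger RNA was measured by polyA RNA-seq in 14 mouse libraries as FPKM (fragment counts divided by transcript length and by library size). The study asked how the zinc finger protein Zfp281 bears on the conversion of ESCs into extraembryonic endoderm (XEN) cells, the cultured counterpart of the primitive endoderm.

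The 4 ESC lines, of the 129S1/SVImJ strain, each gave 1 library at 3 stages. Line 3WT is wild type, 3.34Null and 2.6Null are labelled Zfp281 knockouts, and 3.34Null-Rescue is the 3.34 knockout line with Zfp281 put back. Stage ESC (passage 0) was grown on gelatin with serum and LIF. At stage cXENp1 (passage 1) cells had spent 24 h in XEN medium and then 48 h with 0.01 µM all-trans retinoic acid plus 10 ng/mL activin A. For stage cXENp3 (passage 3) cells of every line, the controls included, were passed onto fibroblast feeders (iMEF) and back to gelatin. XENB1 (strain 129S1) and XEN5 (129S1/SVImJ) are established XEN lines grown without feeders in fibroblast-conditioned medium, with 1 library each. Here 3WT and 3.34Null-Rescue are called the Zfp281-present lines, and 3.34Null and 2.6Null the Zfp281-null lines. Each line is a single culture per stage, the rescued line descends from the 3.34 line, and p-values therefore measure only the spread between these few lines.

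Pou5f1 encodes OCT4, a POU-domain factor, Sox2 an HMG-box factor, and Nanog a homeodomain factor. In ESCs, OCT4 and SOX2 bind side by side at composite DNA elements near many pluripotency genes, including their own, and NANOG occupies many of the same places, so each gene is both a member and a target of the circuit. Retinoic acid is a classical signal for shutting the circuit down, and nuclear receptors bind the proximal Pou5f1 promoter in differentiating cells. In the early embryo NANOG marks the epiblast and GATA6, which acts against it, the primitive endoderm.

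The proximal promoters are shown because they hold matches to the motifs that these factors and nuclear receptors read. The stretches are from RefSeq on mouse build GRCm38.p6, plus strand, which is the coding strand of all 3 genes, and capitals mark the matches named here. The octamer was searched by its core ATGCAAA, which is shorter than the full octamer. The Nanog stretch, chr6:122707384-122707457, carries in reverse orientation the composite element of SOX half-site and octamer core (CATTGTNATGCAAA) from -75 to -62 relative to the transcription start. The Sox2 stretch, chr3:34649866-34649932, has the octamer core ATGCAAA, in capitals, from -99 to -93, and a GC box in reverse orientation from -111 to -106, left in lower case. The Pou5f1 stretch, chr17:35505957-35506031, has a GC box (GGGCGG) from -45 to -40 and a nuclear receptor half-site (AGGTCA) from -33 to -28.
Nanog: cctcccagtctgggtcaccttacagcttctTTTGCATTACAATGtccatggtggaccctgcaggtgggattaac
Sox2: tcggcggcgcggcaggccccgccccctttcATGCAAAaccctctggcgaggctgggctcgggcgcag
Pou5f1: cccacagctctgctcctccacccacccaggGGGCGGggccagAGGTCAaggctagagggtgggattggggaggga
Both strands of the 250 bases before each of 32851 RefSeq starts were searched. The composite element occurred in 2 windows (0.00609%), the overlapping windows of the 2 annotated starts of Nanog. Both matches are the same bases of the genome, which also contain the octamer core and the SOX half-site CATTGT. The octamer core alone occurred in 4.12% of windows, the SOX half-site in 10.7%, the nuclear receptor half-site in 14.02% and the GC box in 32.7%. The nuclear receptor half-site was not particular to Pou5f1. Outside the stretches shown it occurred in reverse orientation in the Sox2 window (-244 to -239) and in 1 Nanog window (-248 to -243). The Sox2 window also held a further GC box (-223 to -218). These matches describe the letters of the windows only, and binding was not measured in the series.

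In the deposited table, on build mm9, Pou5f1 (XLOC_008462) spans chr17:35642977-35647722 and Nanog (XLOC_016794) spans chr6:122657586-122663796. The Sox2 row (XLOC_012606) spans chr3:34459303-34576915, a length of 117613 bp. That is the RefSeq length of Sox2ot, a long noncoding RNA that overlaps Sox2 on the same strand, whereas RefSeq Sox2 is 2467 bp. A second row, Mir1897 (XLOC_012605), has the identical span, with 0.0394 to 0.429 FPKM in the 12 libraries of the 4 ESC lines and 0 in the XEN lines. Sox2ot has no row under its own name, and whether its reads were counted in the Sox2 row, in the Mir1897 row or in neither is not given in the sources used here. Nanog also has processed pseudogenes in mouse that have no row, and the Pou5f1-related sequence Pou5f1-rs10 has none either. Any reads they share with Nanog or Pou5f1 could not be separated.

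The libraries summed to between 424400 and 718100 FPKM and listed between 14972 and 16831 genes above 0. Zfp281 itself lay between 25.1 and 38.6 FPKM in the 6 Zfp281-present libraries, between 1.29 and 3.96 in 3.34Null, and between 0 and 0.558 in 2.6Null, in the order the labels give. XENB1 and XEN5 had 10.6 and 12.5 FPKM of Zfp281. The table holds no counts, so the depth is unknown, and a 0 can be a failed estimate: Eef1a1, which every cell uses, is listed at 0 in 10 libraries. The ESC libraries of 3WT, 3.34Null and 3.34Null-Rescue carry the description prefix JH and the other 11 libraries the prefix XH, so stage and prefix coincide except in 2.6Null, where all 3 stages share 1 prefix.

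At stage ESC the trio ranked among the most abundant messages. Pou5f1 stood at 957.0 FPKM in 3WT, 912.0 in 3.34Null-Rescue, 977.2 in 3.34Null and 1312 in 2.6Null. Sox2 stood at 521.2, 524.8, 452.2 and 260.7 FPKM, and Nanog at 239.4, 271.5, 321.2 and 259.7 FPKM, in the same order of lines. Counted from the highest FPKM in its library, Pou5f1 ranked 91 to 114, Sox2 163 to 374 and Nanog 264 to 376. Nanog varied least among the 4 lines (272.9 ± 34.8 FPKM, SD, n = 4, a coefficient of variation of 12.8%), ahead of Pou5f1 (1040 ± 184 FPKM, SD, n = 4, 17.7%) and Sox2 (439.7 ± 124 FPKM, SD, n = 4, 28.2%). The 2.6Null library had both the highest Pou5f1 and the lowest Sox2, and its Pou5f1 to Sox2 ratio of FPKM was 5.03, against 1.74 to 2.16 in the other 3 lines.

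None of the 3 genes passed the test for a difference between Zfp281-null and Zfp281-present ESCs. The limma differences on the log2(FPKM + 1) scale were 0.28 for Pou5f1 (95% interval -0.943 to 1.497, adjusted p = 0.854), -0.61 for Sox2 (-2.27 to 1.06, adjusted p = 0.717) and 0.18 for Nanog (-1.71 to 2.07, adjusted p = 0.962). All p-values of such fits were adjusted by the Benjamini-Hochberg method over all genes tested, and a gene is called at an adjusted p under 0.05. Across the table, 1.97% of the 13191 genes tested were called in either direction (260 genes, with 2762 at an unadjusted p under 0.05). Each interval spans more than 2 log2 units.

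**Figure D1:**
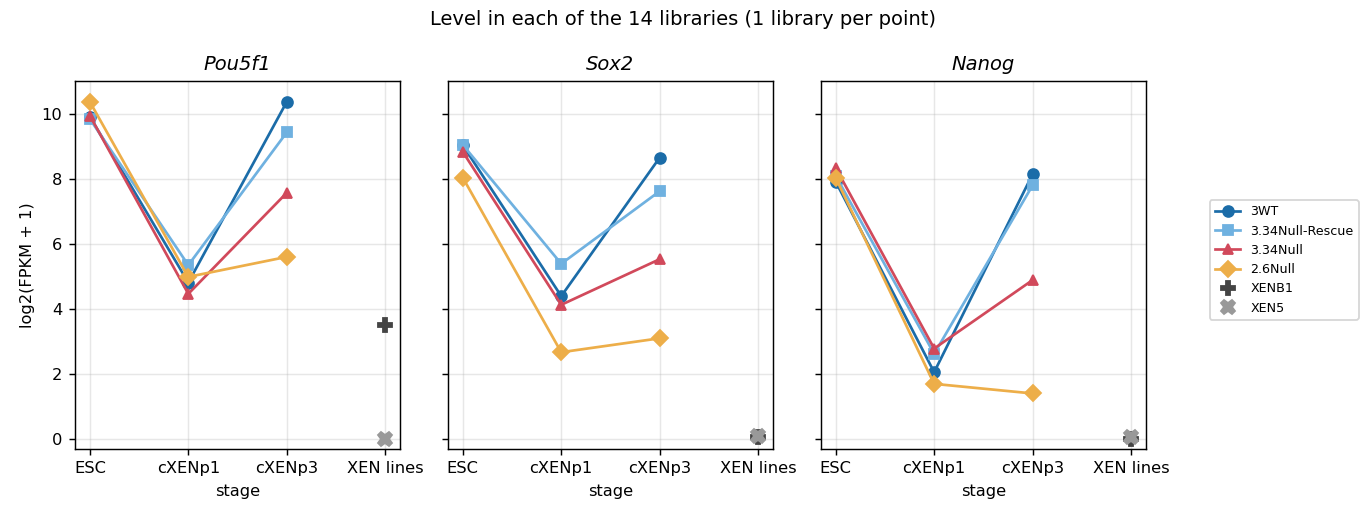
Levels of Pou5f1, Sox2 and Nanog in the 14 libraries. Each point is 1 library, the vertical axis is log2(FPKM + 1), the horizontal axis is the stage, and lines join libraries of the same ESC line. All 4 lines drop together from ESC to cXENp1 and separate at cXENp3, where Pou5f1 ranges from 47.4 to 1313 FPKM.

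Retinoic acid and activin were followed by a fall of all 3 genes in all 4 lines. At cXENp1 Pou5f1 stood at 27.0 FPKM in 3WT, 39.6 in 3.34Null-Rescue, 21.0 in 3.34Null and 30.6 in 2.6Null. Sox2 stood at 20.0, 40.8, 16.4 and 5.35 FPKM, and Nanog at 3.15, 5.13, 5.87 and 2.24 FPKM, in the same order. No cXENp1 library overlapped any ESC library for any of the 3 genes. Between 0.862% and 1.89% of each line's own ESC level of Nanog was left, between 2.15% and 4.34% for Pou5f1 and between 2.05% and 7.77% for Sox2.

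In the limma fit with the line as block, cXENp1 differed from ESC by -5.11 (SE 0.732, adjusted p = 0.00166) for Pou5f1, by -4.59 (SE 0.628, adjusted p = 0.00134) for Sox2 and by -5.80 (SE 0.999, adjusted p = 0.00384) for Nanog. The fit also took in the cXENp3 libraries and had no term for the genotype class. Its SE and p therefore include the parting of the lines at cXENp3 and do not measure the spread of this drop alone. All 3 were called lower, as were 13.8% of all genes tested. With the description prefix as a further term the differences were -6.74, -6.19 and -8.11 (limma adjusted p = 0.0326, 0.0262 and 0.0431). Only 2.6Null has an ESC library that shares the prefix of its later stages. This fit therefore separates stage from prefix through that line alone and cannot tell the prefix from a trait of the line. The folds of 2.6Null given next are the same evidence and not a second check. Within 2.6Null, whose libraries share 1 prefix, ESC exceeded cXENp1 42.9-fold for Pou5f1, 48.7-fold for Sox2 and 116-fold for Nanog in FPKM. Since these are bulk samples, fewer cells that express a gene and less RNA per cell cannot be told apart, here and in every comparison below.

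Nanog kept the smallest share of its ESC level in each of the 4 lines. Sox2 kept the largest in all but 2.6Null, where its share (2.05%) lay below that of Pou5f1 (2.33%). The drop of Nanog on the log2(FPKM + 1) scale exceeded that of Pou5f1 by 0.69 on average (difference -0.69, SD 0.422, n = 4 lines), and that of Sox2 by 1.21 (difference -1.21, SD 0.432, n = 4). For Pou5f1 against Sox2 the mean difference was -0.52 (SD 0.378, n = 4). Each difference had the same sign in 4 of 4 lines on this scale, where Pou5f1 minus Sox2 was -0.01 in 2.6Null, although in FPKM the fold drop of that line was larger for Sox2 (48.7) than for Pou5f1 (42.9). Each of the 3 pairs gave the smallest p that an exact 2-sided sign-flip permutation test over 4 lines allows, which lies above 0.05. The Pou5f1 to Nanog ratio of FPKM went from 3.04 to 5.05 in the ESC libraries to 3.58 in 3.34Null, 7.71 in 3.34Null-Rescue, 8.57 in 3WT and 13.7 in 2.6Null at cXENp1.

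At cXENp1 the genotype classes were not separated. The null minus present difference was -0.35 for Pou5f1 (95% interval -1.57 to 0.87, limma adjusted p = 0.886), -1.49 for Sox2 (-3.16 to 0.18, adjusted p = 0.507) and -0.10 for Nanog (-1.99 to 1.79, adjusted p = 0.993), so 0 of 3 were called. Of all genes 0.485% were called in either direction (64 genes, with 1486 at an unadjusted p under 0.05). For Sox2 both null libraries (5.35 and 16.4 FPKM) lay below both present libraries (20.0 and 40.8), whereas the Pou5f1 and Nanog values of the classes overlapped.

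**Figure D2:**
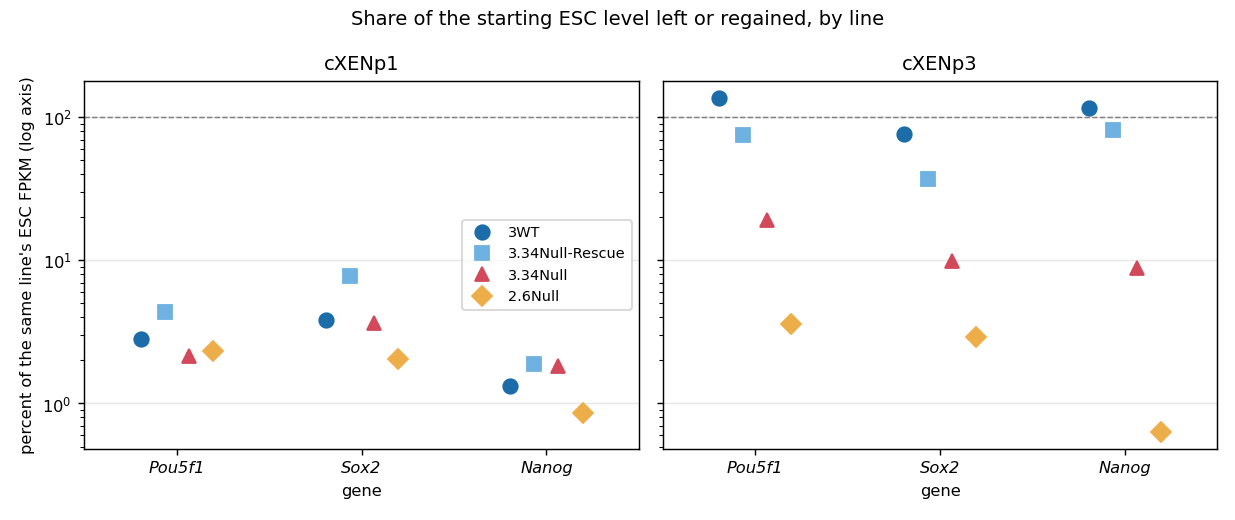
Level at cXENp1 (left) and cXENp3 (right) as a percentage of the same line's ESC FPKM, on a log axis, for each gene. Each symbol is 1 line, and the dashed line marks 100%. At cXENp1 every symbol lies between 0.862% and 7.77%, and at cXENp3 the symbols spread from 0.631% to 137%, with both Zfp281-present lines above both Zfp281-null lines for each gene.

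After passage 3 the 4 lines had parted. Pou5f1 stood at 1313 FPKM in 3WT, 685.1 in 3.34Null-Rescue, 188.5 in 3.34Null and 47.4 in 2.6Null. Sox2 stood at 399.5, 195.1, 45.0 and 7.54 FPKM, and Nanog at 280.3, 221.3, 28.5 and 1.64 FPKM, in the same order. The order of lines was the same for all 3 genes, and the lower of the Zfp281-present libraries exceeded the higher of the Zfp281-null libraries 3.63-fold for Pou5f1, 4.33-fold for Sox2 and 7.76-fold for Nanog.

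The null minus present difference at cXENp3 was -3.31 for Pou5f1 (SE 0.547, adjusted p = 0.00158), -3.82 for Sox2 (SE 0.748, adjusted p = 0.00351) and -4.82 for Nanog (SE 0.848, adjusted p = 0.00210) by limma. All 3 genes were called lower in the Zfp281-null lines, as were 19.0% of all genes tested. Without line 3WT, where 3.34Null-Rescue alone stands for the present class and is assumed to vary like the other groups, the differences were -2.84, -3.31 and -4.66 and the adjusted p were 0.0576, 0.0814 and 0.0606, so the 3 calls were lost. The 3.34Null-Rescue library at cXENp3 stood apart in its fibroblast markers: the summed FPKM of 9 markers, among them the collagen genes Col1a1 and Col1a2, was 1248 there, against 33.4 in 3WT, 272.3 in 3.34Null and 346.9 in 2.6Null. None of the 9 markers was listed at 0 in this library, in either null line at cXENp3 or in the XEN lines. The XEN lines, grown without feeders, summed to 543.9 and 624.0. Without that library, an alternative chosen after seeing the data, all 3 genes were again called lower (-3.78, -4.34 and -4.99, adjusted p = 0.00321, 0.00727 and 0.00825).

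In the Zfp281-present lines the trio returned. From cXENp1 to cXENp3, Pou5f1 rose by 4.82 (SE 0.547, limma adjusted p = 0.00109), Sox2 by 3.24 (SE 0.748, adjusted p = 0.0230) and Nanog by 5.63 (SE 0.848, adjusted p = 0.00366) on the log2 scale. All 3 were called higher, against 4.91% of all genes tested. In 3WT the FPKM at cXENp3 was 48.6 times that at cXENp1 for Pou5f1, 20.0 times for Sox2 and 88.9 times for Nanog, and in 3.34Null-Rescue 17.3, 4.78 and 43.1 times. These calls rest on both lines: without 3WT the adjusted p were 0.121, 0.702 and 0.247, and without 3.34Null-Rescue they were lost for Sox2 (0.112) and Nanog (0.0780) and held for Pou5f1.

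Against its own ESC level, 3WT at cXENp3 held 137% of Pou5f1, 76.6% of Sox2 and 117% of Nanog, and 3.34Null-Rescue held 75.1%, 37.2% and 81.5%. Sox2 was the member with the lowest share in both lines. The present-class differences between cXENp3 and ESC were 0.02 for Pou5f1 (95% interval -1.20 to 1.24, limma adjusted p = 0.991), -0.90 for Sox2 (-2.57 to 0.76, adjusted p = 0.568) and -0.03 for Nanog (-1.92 to 1.86, adjusted p = 0.991). None of the 3 was called, and 1.30% of all genes were called in either direction (171 genes, with 2405 at an unadjusted p under 0.05). The signs for Pou5f1 and Nanog turned with the description prefix as a term, to -0.40 and 0.27.

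In the Zfp281-null lines only Pou5f1 passed the test for a rise from cXENp1 to cXENp3, by 1.86 (SE 0.547, limma adjusted p = 0.0376), where 12.5% of all genes were called higher. Sox2 differed by 0.91 (SE 0.748, adjusted p = 0.414) and Nanog by 0.90 (SE 0.848, adjusted p = 0.477). With the line as block the Pou5f1 call was lost (1.86, adjusted p = 0.0544), and it was lost without 3.34Null (0.62, adjusted p = 0.399), without 3WT (0.0914) and without 3.34Null-Rescue (0.0913), the last pair only through the shared estimate of the spread. For Nanog the difference was 2.103 without 2.6Null (adjusted p = 0.00838) and -0.30 without 3.34Null (adjusted p = 0.564).

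The null lines differed from each other. In 3.34Null the FPKM at cXENp3 was 8.97 times that at cXENp1 for Pou5f1, 2.74 times for Sox2 and 4.86 times for Nanog. In 2.6Null the same ratios were 1.55, 1.41 and 0.732, so Nanog was lower at cXENp3 than at cXENp1 in that line. At cXENp3, 3.34Null exceeded 2.6Null 3.98-fold for Pou5f1, 5.97-fold for Sox2 and 17.4-fold for Nanog, and with 1 library each this difference has no replicate check. Relative to its own ESC level 3.34Null held 19.3% of Pou5f1, 9.96% of Sox2 and 8.88% of Nanog, and 2.6Null held 3.61%, 2.89% and 0.631%. Both lines ended far below their start: from ESC to cXENp3 the null class changed by -3.56 for Pou5f1 (SE 0.547, limma adjusted p = 0.000833), -4.12 for Sox2 (SE 0.748, adjusted p = 0.00191) and -5.04 for Nanog (SE 0.848, adjusted p = 0.00130), all 3 called lower beside 22.3% of all genes.

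The difference between the classes in the change from cXENp1 to cXENp3 was itself tested. The interaction term (null minus present) was -2.96 for Pou5f1 (SE 0.774, limma adjusted p = 0.0383), -4.73 for Nanog (SE 1.199, adjusted p = 0.0342) and -2.33 for Sox2 (SE 1.06, adjusted p = 0.158). Thus 2 of 3 were called lower, against 4.26% of all genes. With the line as block Nanog kept its call (adjusted p = 0.0188) and Pou5f1 lost it (adjusted p = 0.0544). The Pou5f1 call was lost without 3WT (-2.22, adjusted p = 0.479), without 2.6Null (-1.71, adjusted p = 0.116) and without 3.34Null-Rescue (-3.69, adjusted p = 0.110). The Nanog call was lost without 3WT (-4.28, adjusted p = 0.425) and without 3.34Null-Rescue (-5.18, adjusted p = 0.145), and Sox2 was called without 3.34Null (-2.82, adjusted p = 0.0418).

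**Figure D3:**
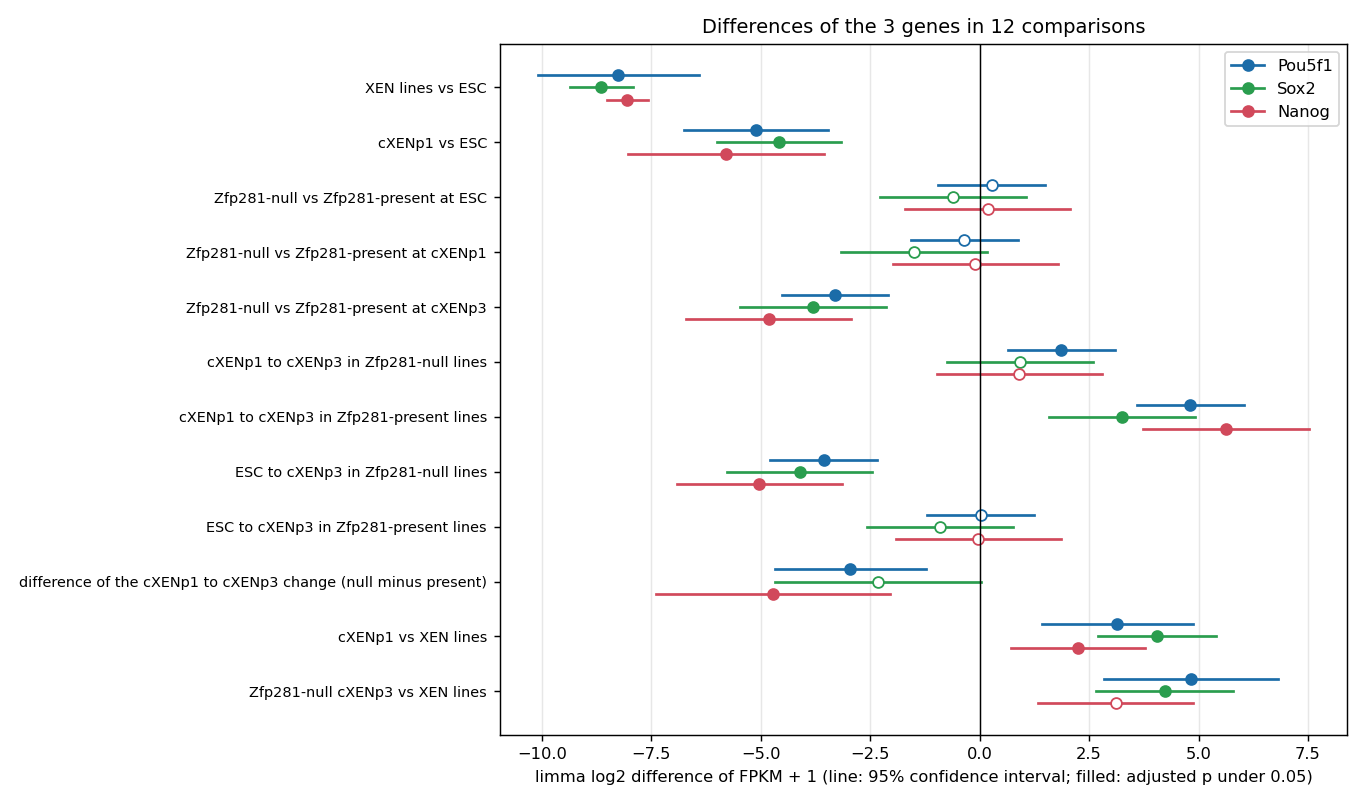
Differences of Pou5f1, Sox2 and Nanog in the 12 comparisons. Points are limma differences of log2(FPKM + 1), bars are 95% confidence intervals, and filled points have an adjusted p under 0.05. The drop at cXENp1 is filled for all 3 genes, the class difference is filled at cXENp3 but not at ESC or cXENp1, and the return is filled for all 3 genes in the Zfp281-present lines.

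The XEN lines give the level at the endpoint. Pou5f1 stood at 10.4 FPKM in XENB1 and was listed at 0 in XEN5. Sox2 stood at 0.0549 FPKM in XENB1 and 0.0709 in XEN5, and Nanog was listed at 0 in XENB1 and stood at 0.0533 in XEN5. The values of Sox2 in both lines and of Nanog in XEN5 lay below 0.1 FPKM, while the Pou5f1 values disagree: Pou5f1 was 1 of 10 genes with at least 10 FPKM in XENB1 that were listed at 0 in XEN5. Whether the 0 of Pou5f1 in XEN5 or that of Nanog in XENB1 is a failed estimate was not tested. Against the 4 ESC libraries the 2 XEN libraries were lower by limma, with differences of -8.25 for Pou5f1 (SE 0.793, adjusted p = 0.00020), -8.64 for Sox2 (SE 0.307, adjusted p = 4.92e-06) and -8.05 for Nanog (SE 0.201, adjusted p = 1.41e-06). All 3 were called lower, as were 19.7% of all genes tested. For Pou5f1 the difference was -6.50 without XEN5 (limma adjusted p = 0.000255) and -10.01 without XENB1 (adjusted p = 6.64e-05).

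The level left at cXENp1 was above that of the XEN lines for all 3 genes, by 3.15 for Pou5f1 (SE 0.785, limma adjusted p = 0.00845), 4.05 for Sox2 (SE 0.615, adjusted p = 0.000498) and 2.25 for Nanog (SE 0.698, adjusted p = 0.0242), where 19.4% of all genes were called higher. The lowest cXENp1 values, 21.0, 5.35 and 2.24 FPKM, lay above the highest XEN values for each gene. The Pou5f1 call was lost without XEN5 (1.39, adjusted p = 0.118). The Nanog call was lost without 3WT (adjusted p = 0.0758), 3.34Null-Rescue (0.107), XEN5 (0.101) or XENB1 (0.106), while its difference stayed between 1.98 and 2.52.

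At cXENp3 the Zfp281-null lines still exceeded the XEN lines by 4.83 for Pou5f1 (SE 0.907, limma adjusted p = 0.0153) and 4.22 for Sox2 (SE 0.710, adjusted p = 0.0102), and the Nanog difference of 3.10 (SE 0.806, adjusted p = 0.0573) was not called. That makes 2 of 3 called higher, against 2.64% of all genes. The Pou5f1 call was lost without 3WT (adjusted p = 0.0834), 3.34Null (3.84, adjusted p = 0.0887), 3.34Null-Rescue (adjusted p = 0.0838) or XEN5 (3.08, adjusted p = 0.0545). The Sox2 call was lost without 3WT (adjusted p = 0.0550), 3.34Null-Rescue (0.0555) or XEN5 (0.0534). Nanog was called without 2.6Null (4.85, adjusted p = 0.000728), without 3.34Null (1.36, adjusted p = 0.0328) and with a pseudocount of 0.1 (5.83, adjusted p = 0.00665). In 2.6Null, the line nearest the XEN level, Pou5f1 still ranked 2019 from the top of its library, whereas Nanog ranked 10882.

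Ordered by group mean, Pou5f1 was high in the null ESC, present cXENp3 and present ESC groups. The range of present cXENp3 overlapped both ESC groups, which did not overlap each other. Pou5f1 was lower in null cXENp3 (47.4 to 188.5 FPKM), lower again in the 2 overlapping cXENp1 groups (21.0 to 39.6), and lowest in XEN. For Nanog the same 3 groups were high and overlapping, and null cXENp3 (1.64 to 28.5 FPKM) overlapped both cXENp1 groups. Sox2 was highest in present ESC, followed by null ESC and present cXENp3, which overlapped, and then by present cXENp1, null cXENp3 and null cXENp1, each overlapping the next. Pou5f1 was thus the only member for which the null cXENp3 libraries lay clear of every cXENp1 library. The Pou5f1 to Nanog ratio at cXENp3 was 4.68 in 3WT and 3.10 in 3.34Null-Rescue, 6.61 in 3.34Null and 28.9 in 2.6Null.

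Of 8 genes taken as targets of OCT4 and SOX2, 6 were called lower at cXENp1 than at ESC and none higher (limma, median of the 8 differences -4.11, against 0.00 over all genes, of which 13.8% were called lower). Fgf4, a growth factor secreted by epiblast cells, changed by -6.18 (SE 0.712, adjusted p = 0.000648), Utf1, a chromatin factor, by -3.97 (SE 0.834, adjusted p = 0.00909), and Fbxo15, an F-box protein, by -2.68 (SE 0.366, adjusted p = 0.00134). Lefty1, a secreted Nodal antagonist, went the other way without being called (1.81, SE 0.892, adjusted p = 0.151). Fgf4 stood between 78.3 and 175 FPKM in the ESC libraries and between 0.0546 and 0.579 at cXENp1. With the prefix as a term 3 of the 8 were called.

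At cXENp3, 7 of the 8 targets were called lower in the Zfp281-null lines, against 19.0% of all genes. The median of the 8 differences was -2.93, and that over all genes was 0.01. For Lefty1 the limma difference was -6.53 (adjusted p = 0.000759, SE 0.917). That of Fgf4 was -3.02 (adjusted p = 0.0137, SE 0.795). Fgf4 stood at 89.6 FPKM in 3WT, 31.6 in 3.34Null-Rescue, 17.0 in 3.34Null and 1.503 in 2.6Null, the same order of lines as the trio. Lefty1 stood at 580.2, 386.4, 5.43 and 3.09 FPKM, and both null lines were also low in Lefty1 at ESC (8.43 and 3.12 FPKM, against 50.7 and 45.2 in the present lines), although none of the 8 was called there or at cXENp1. The count at cXENp3 was 3 without 3WT and 4 without 2.6Null. From cXENp1 to cXENp3, 6 of 8 were called higher in the present lines (median 3.92), against 4.91% of all genes. In the null lines 3 of 8 were called higher (median 0.94), against 12.5% of all genes. The medians over all genes were 0.01 and -0.01, and the count in the present lines fell when either present line was left out.

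Of 12 circuit partners, factors that cooperate with the trio in ESCs, 10 were called lower at cXENp1 (median -3.75) and none higher. Of all genes 13.8% were called lower there. Esrrb, an orphan nuclear receptor, changed by -6.77 (SE 1.04, limma adjusted p = 0.00233), Klf4 by -4.77 (SE 0.322, adjusted p = 6.4e-05) and Klf2, like Klf4 a Krüppel-like factor, by -3.95 (SE 0.501, adjusted p = 0.000966), while Sall4 was not called (-0.999, SE 0.355, adjusted p = 0.0605). With the prefix as a term 4 of the 12 were called. From cXENp1 to cXENp3, 10 of 12 were called higher in the present lines (median 3.23), against 4.91% of all genes. That count fell when either present line was left out. In the null lines 2 of 12 were called higher (median 1.00), against 12.5% of all genes.

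At cXENp3, 8 of the 12 partners were called lower in the null lines (median -2.30), against 19.0% of all genes. That count fell when either present line was left out. Esrrb differed by -4.70 (SE 0.935, limma adjusted p = 0.00378), with 204.1 FPKM in 3WT, 117.2 in 3.34Null-Rescue, 22.8 in 3.34Null and 0.509 in 2.6Null. Klf4 did not follow: it stood at 97.0, 56.2, 122.7 and 145.8 FPKM in the same order (difference 0.85, SE 0.415, adjusted p = 0.126), and at 64.5 and 66.7 FPKM in the XEN lines, where Esrrb was listed at 0 or stood at 0.0119.

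**Figure D4:**
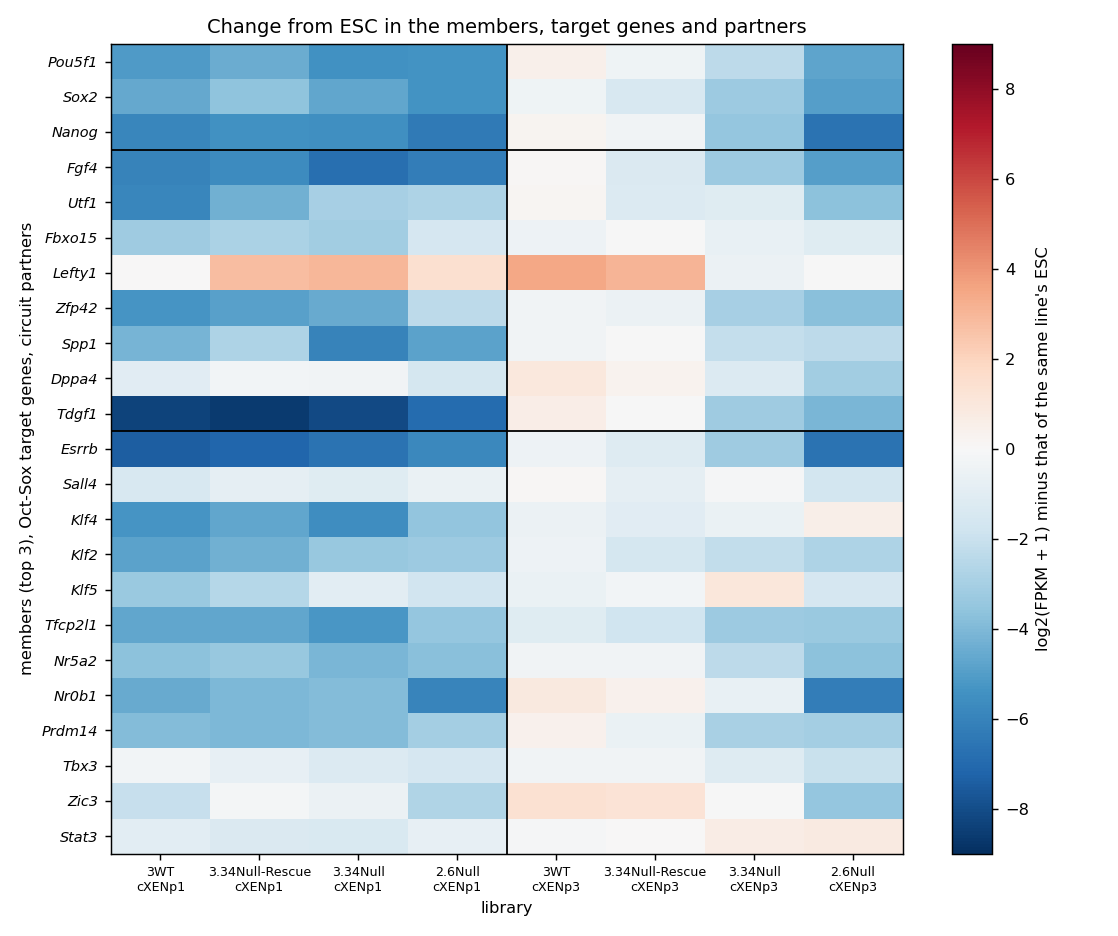
Change from the same line's ESC library in log2(FPKM + 1) for the trio (top 3 rows), 8 OCT4 and SOX2 target genes and 12 circuit partners. Columns are the 4 cXENp1 libraries (left) and the 4 cXENp3 libraries (right), blue is lower and red higher than ESC. Most rows are blue in all cXENp1 columns and stay blue at cXENp3 mainly in the 2 Zfp281-null columns. Lefty1 is not blue at cXENp1, and Klf4 in 2.6Null, Klf5 in 3.34Null and Stat3 in both null lines are above ESC at cXENp3.

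Among 8 genes known to act on the Pou5f1 or Nanog loci, 5 were called higher at cXENp1 than at ESC and none lower (limma, median 1.01), where 14.7% of all genes were called higher. Nr2f1 and Nr2f2, the COUP-TF nuclear receptors that repress Pou5f1 through its nuclear receptor element, rose by 3.05 (SE 0.528, adjusted p = 0.00396) and 3.69 (SE 0.576, adjusted p = 0.00245). Nr2f2 stood between 0.0108 and 0.0716 FPKM in the ESC libraries and at 26.9 in 3WT, 7.85 in 3.34Null-Rescue, 11.2 in 3.34Null and 9.49 in 2.6Null at cXENp1. Nr6a1, the germ cell nuclear factor that silences Pou5f1, rose by 0.80 (SE 0.256, adjusted p = 0.0437), and Tcf7l1, a repressor of Nanog, by 1.22 (SE 0.219, adjusted p = 0.00472). In the present lines Nr2f1 and Nr2f2 fell from cXENp1 to cXENp3 (-2.97, SE 0.524, adjusted p = 0.00775, and -2.65, SE 0.667, adjusted p = 0.0322). At cXENp3 Nr2f2 stood at 0.159 FPKM in 3WT and 4.38 in 3.34Null-Rescue, 7.23 in 3.34Null and 4.42 in 2.6Null, and neither gene was called between the classes there.

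Related family members were read against the 14.7% of all genes called higher and the 13.8% called lower at cXENp1. Of the 6 POU genes tested, 1 was called lower at cXENp1 (Pou2f3, -2.23, SE 0.46, limma adjusted p = 0.00831; named after its value was seen) and none higher. Of 12 other SOX genes, 3 were called higher and 1 lower. Sox4, a SOXC factor, rose by 3.14 (SE 0.276, adjusted p = 0.000224) and Sox3, with Sox1 the closest relative of Sox2, by 2.88 (SE 0.473, adjusted p = 0.00313), while Sox1 was not called (-0.22, SE 0.828, adjusted p = 0.863). At cXENp3, 3 of the 12 were higher and 3 lower in the null lines, where 22.9% of all genes were called higher and 19.0% lower. Sox17 and Sox7, factors of the endoderm that are also on the list of XEN markers, were higher by 6.89 (SE 0.647, adjusted p = 0.000136) and 6.06 (SE 1.08, adjusted p = 0.00221), with Sox17 at 183 FPKM in 3.34Null and 105.9 in 2.6Null against 0.306 in 3WT and 0.0632 in 3.34Null-Rescue.

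The levels of the trio can be set beside markers of other cell types in the same libraries. Of 10 XEN markers, 9 were called higher in the null than in the present lines at cXENp3 (limma, median 5.62), against 22.9% of all genes, and their summed FPKM was 945.3 to 1172 in the null lines, 1034 to 1423 in the XEN lines and 7.19 to 14.4 in the present lines. Gata6, the endoderm factor opposed to Nanog in the embryo, stood at 1.16 FPKM in 3WT, 5.04 in 3.34Null-Rescue, 211.7 in 3.34Null and 140.9 in 2.6Null at cXENp3. The 3.34Null library thus held 28.5 FPKM of Nanog and 188.5 of Pou5f1 beside Gata6 at the XEN level (157.9 and 196.1), and whether this comes from the same cells or from a mixture cannot be told apart in bulk RNA. Already at ESC, 2.6Null held 10.52 FPKM of Gata6, against 0.0558 to 0.562 in the other 3 lines, together with 259.7 FPKM of Nanog. Markers of neural progenitors summed to 7.43 and 9.24 FPKM in the present and 28.5 and 66.1 in the null ESC libraries, to 26.8 to 56.4 at cXENp1 and to 12.1 to 18.5 at cXENp3. The higher sums at ESC lay mainly in Sox1 and Olig2, named after their values were seen. Sox1 stood at 22.67 FPKM in 2.6Null and 27.54 in 3.34Null, against 6.651 in 3WT and 3.923 in 3.34Null-Rescue. Olig2 stood at 4.204, 36.11, 0.07414 and 0 FPKM in the same order. Nes was not higher in the null ESC libraries, and none of the 5 markers tested was called between the classes there. The part of any of these cell types in the levels of the trio was not tested.

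**Figure D5:**
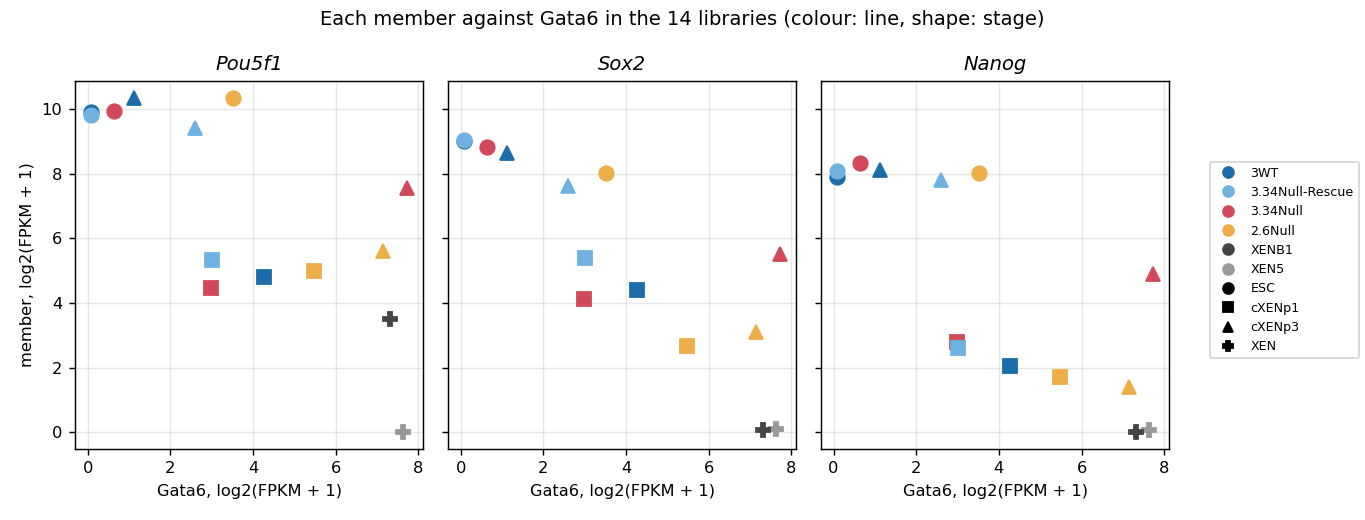
Each member against Gata6 in the 14 libraries, both axes in log2(FPKM + 1); colour gives the line and shape the stage. The ESC and the Zfp281-present cXENp3 libraries lie at the top, with Gata6 at or below 10.52 FPKM (2.6Null ESC), and the Zfp281-null cXENp3 libraries at the right, with 3.34Null above 2.6Null for each member. The cXENp1 libraries are low in each member while Gata6 is at 6.88 to 43.3 FPKM.

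Over the 14 libraries, which share lines and stages, the members' log2(FPKM + 1) values had a Pearson r of 0.951 for Nanog and Pou5f1, 0.964 for Nanog and Sox2 and 0.944 for Pou5f1 and Sox2. For the ranking by likeness, genes listed at 0 in every library of a group while above a fixed level elsewhere were left out. This removed genes such as Fgf4, Nr0b1 and Prdm14, listed at 0 in both XEN lines. Among the genes ranked, the one most like Pou5f1 was Zfp42 (r = 0.961), the pluripotency marker Rex1. It was followed by Cpsf3l (0.960), Utf1 (0.954), Bcat1 (0.953) and Zscan10 (0.952). Sox2 was most like Zbtb8a (0.980), 8030462N17Rik (0.977), Pipox (0.975), Bcat1 (0.971) and Camta1 (0.970). Nanog was most like Cobl (0.992), Gpa33 (0.986), Nr5a2 (0.986), Esrrb (0.985) and 1700019D03Rik (0.977). The likeness is in shape and not in level: 8030462N17Rik ranged only from 5.97 to 15.1 FPKM and Esrrb from 0 to 281.9. Bcat1, which encodes a branched-chain amino acid transaminase, was the only gene on more than 1 of the 3 lists.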

How the data were processed

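The authors deposited 1 table of 23174 gene rows and 14 library columns. The deposited FPKM values were made by the authors with STAR 2.5.3 and Cufflinks 2.1.1 on build mm9, per the submitters' processing notes, which give no roles, and the annotation is not given in the sources used here. The unit was read from the values and the Cufflinks row identifiers, since the labels name none. The transcript length behind the Sox2 row is not given. The analysis used log2(FPKM + 1), on which changes of low genes come out too small, with limma 3.58.1 in R 4.3.3 (lmFit, eBayes with trend) on genes with at least 1 FPKM in at least 2 fitted libraries. Benjamini-Hochberg adjustment ran over all 12372 to 13386 such genes, and the fits were tested on simulated data. Fits used 6 libraries (XEN against ESC), 12 libraries with the line as block (cXENp1 against ESC), 12 libraries in 6 groups of 2, or 14 in 7 groups of 2. The lines pair the stages because each line was followed through them. Text names the trio, and listed genes by count with up to 4 examples per list in list order. It also names the 5 most correlated genes per member among the genes ranked. The members, lists and comparisons were chosen with earlier results of these data known. Alternatives were another pseudocount, other filters, quantile normalization, the block, the prefix and leaving out each line.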

Additional observations from a re-analysis of the deposited data

Results flagged for a closer look

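Among the 4 ESC libraries, Pou5f1 in 2.6Null (1312 FPKM) lay far above the other 3, which reached 912.0 to 977.2 FPKM: its gap was 0.837 of the whole range. Of 9 groups of 4 libraries examined (3 genes at 3 stages), 1 stood out in this way. Chance gives about 1 in 20 for each group, so 1 flag among 9 groups is not unusual. The 4 libraries differ in genotype, and 2.6Null is the only ESC library with the prefix XH.

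The change from cXENp1 to cXENp3 differed between the Zfp281-null and Zfp281-present lines by an interaction term of -2.96 for Pou5f1 and -4.73 for Nanog (limma adjusted p = 0.0383 and 0.0342). Both fell short of the threshold without line 3WT (adjusted p = 0.479 and 0.425).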

How the results depend on the processing

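Of 408 values recomputed for the members, 360 kept their direction and their side of the threshold. The limma calls for XEN against ESC, cXENp1 against ESC and ESC to cXENp3 in the null lines held for all 3 genes under every alternative run. Keeping genes with any value above 0 ended the Pou5f1 call in the null lines from cXENp1 to cXENp3 (1.86, adjusted p = 0.0683) and both interaction calls (-2.96, adjusted p = 0.0731, and -4.73 for Nanog, adjusted p = 0.0696), and a pseudocount of 0.1 ended the Nanog interaction call (-5.00, adjusted p = 0.0502). The line as replicate block ended the Pou5f1 calls in the null lines (1.86) and in the interaction (-2.96), both at adjusted p = 0.0544, and no other call of a member. A pseudocount of 0.1 brought Nanog in null cXENp3 against XEN to 5.83 (adjusted p = 0.00665). From ESC to cXENp3 in the present lines, Nanog turned to 0.0501 with quantile normalization, 0.27 with the prefix and 0.14 without the 3.34Null-Rescue cXENp3 library, and Pou5f1 to -0.40 with the prefix; none was called.

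Leaving out each line in turn gave ranges, in which a lone library is assumed to vary like the other groups. Null minus present ranged at cXENp1 from -0.64 to 0.45 for Nanog, and at cXENp3 from -4.29 to -2.33 for Pou5f1, -5.04 to -2.61 for Sox2 and -6.57 to -3.08 for Nanog. From cXENp1 to cXENp3 the null lines ranged from 0.62 to 3.11 for Pou5f1 and -0.30 to 2.103 for Nanog, and the present lines from 4.08 to 5.55 for Pou5f1, 2.23 to 4.26 for Sox2 and 5.18 to 6.08 for Nanog. From ESC to cXENp3 the present lines ranged from -0.41 to 0.46 for Pou5f1 and -0.29 to 0.23 for Nanog. The interaction ranged from -4.20 to -1.71 for Pou5f1, -3.34 to -1.31 for Sox2 and -5.93 to -3.53 for Nanog. Against XEN, cXENp1 ranged from 1.39 to 4.90 for Pou5f1 and 1.98 to 2.52 for Nanog, and null cXENp3 from 3.08 to 6.58 for Pou5f1, 3.01 to 5.44 for Sox2 and 1.36 to 4.85 for Nanog.

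Over all genes, leaving out 3WT took the number called from 5528 to 1057 between the classes at cXENp3, from 1441 to 54 from cXENp1 to cXENp3 in the present lines, and from 1510 to 5 in the interaction. The prefix as a term took cXENp1 against ESC from 3760 to 439. The class difference at ESC went from 260 to 1 without 3WT or without 3.34Null-Rescue and to 1993 without 3.34Null, and at cXENp1 from 64 to 4 without 3WT or without 3.34Null-Rescue and to 638 without 3.34Null. XEN against ESC went from 5181 to 2098 without XEN5, and ESC to cXENp3 in the present lines from 171 to 0 with the prefix or without 3.34Null-Rescue. Without counts in the table, the precision of low values such as those in the XEN lines cannot be stated. The causes of these shifts were not tested.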
